A study of Homo sapiens with 19 samples.

Results

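The genes described here are the colony-stimulating factors and their receptors: the ligands CSF1, CSF2 and CSF3, and the receptor genes CSF1R, CSF2RA, CSF2RB, CSF3R, IL3RA and FLT3. They were taken by gene name from the annotation of the array, with control spots left out, and all 9 were found, by 12 of 50061 probes. They were measured in THP-1, a human acute monocytic leukaemia cell line, so the cultures all derive from 1 leukaemia. Every culture was first differentiated with 30 nM PMA (phorbol 12-myristate 13-acetate), which turns these suspension cells into adherent macrophage-like cells, and the untreated cells (UT) had therefore received PMA as well. UT cells and cells given 0.1 mM vit C (ascorbic acid) were harvested at 8, 24, 48 and 96 h. RNA was hybridised to 19 one-colour Agilent arrays, with 2, 3, 2 and 3 UT arrays and 3, 2, 2 and 2 vit C arrays at the 4 times.

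Colony-stimulating factors are secreted cytokines that keep myeloid cells alive, make them divide and steer their maturation. CSF1 (M-CSF) acts through the tyrosine kinase receptor CSF1R on monocytes and macrophages. CSF2 (GM-CSF) and interleukin-3 each bind their own alpha chain, CSF2RA and IL3RA, and signal through the shared beta chain CSF2RB with JAK2 and STAT5. CSF3 (G-CSF) acts through CSF3R, chiefly on neutrophil precursors, and FLT3 is the receptor kinase of early progenitors. Macrophages can make all 3 factors, and the enhancers and promoters of the ligand genes respond to inflammatory signals and to phorbol ester.

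Values are log2 of the processed signal minus the 75th percentile of the same array, called normalised signal below, and levels of different probes are not compared. A probe was detected on an array where the scanner software marked it well above background. A gene was called where a probe differed by at least 1 on the log2 scale with q of at most 0.05 (limma, Benjamini-Hochberg over the array). With so few arrays per group, groups that do not overlap are a weak sign, and the share of all genes without overlap was not counted. Where a gene had several probes, the probe of that gene with the highest mean signal over the arrays gives its value. Where no array of 1 group was detected, a fold is a bound against the lowest signal of any detected probe on each of those arrays, or the probe's own signal where that was higher. On the vit C arrays of 96 h that percentile was 806.3 and 923.7, above the other 17 arrays, which spanned 296.8 to 638.5. No spot was saturated, and 57.5 to 72.8% of probes were detected per array. All UT arrays of 8, 24 and 48 h and 1 of 96 h lay on 1 slide, and the other 2 UT arrays of 96 h shared a slide with 6 vit C arrays, leaving vit C replicate 2 of 48 h alone on another. The vit C arrays of 96 h lay on a slide of their own with another scan day, so slide, scan and vit C cannot be told apart at 96 h. At 8, 24 and 48 h no UT and vit C array of the same time shared a slide either, and the values given below with slide as a block link the UT slide to that of the vit C arrays only through the UT arrays of 96 h, which lay on both. Slide-block values of vit C at 48 h also rest on replicate 1 alone, because replicate 2 shared its slide with no other array. Of 12 monocyte and macrophage markers 11 were detected on all arrays and LYZ on 18, with single markers that varied widely between arrays (CD14 from 0.389 to 5.74, LYZ from -4.577 to -0.776). Of the T cell markers CD3E was detected on all 19 arrays, CD2 on 11, CD3G on 3 and CD3D on none. Of the NK cell markers KLRF1 was detected on 18, NCR1 on 12 and KLRD1 on none, and of the fibroblast markers DCN on 14, COL1A1 on 5 and COL1A2 on none. Of the endothelial markers VWF and PECAM1 were detected on all and CDH5 on none, and of the epithelial markers KRT19 on 17 and KRT5 on none. In such bulk RNA, fewer cells making a transcript and less transcript per cell cannot be told apart.

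RefSeq (GRCh38.p14) promoters were found for 6 of the 9 genes, with no entry for CSF1, CSF3 and CSF2RB. Of the 6, those of CSF2, which rose over time at 24 and 48 h in both arms, and of IL3RA and FLT3, which fell, are shown here. Each run is the 250 bases before the gene's start, 5′ to 3′ on the gene's strand. Capitals mark matches, on either strand, to a TATA box (TATAAA), an AP-1 site (TGANTCA), the CK-1 core (AGATTCC), an ETS core (GAGGAA) or a CCAAT box (CCAAT). The windows are chr5:132073539-132073788 (plus strand) for CSF2, chrX:1336535-1336784 (plus strand) for IL3RA and chr13:28100577-28100826 (minus strand) for FLT3.
CSF2: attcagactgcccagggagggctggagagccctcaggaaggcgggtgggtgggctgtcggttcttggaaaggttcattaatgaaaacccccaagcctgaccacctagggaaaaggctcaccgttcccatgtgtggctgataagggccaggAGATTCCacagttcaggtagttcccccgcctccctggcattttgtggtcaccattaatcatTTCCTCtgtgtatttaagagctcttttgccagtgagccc
IL3RA: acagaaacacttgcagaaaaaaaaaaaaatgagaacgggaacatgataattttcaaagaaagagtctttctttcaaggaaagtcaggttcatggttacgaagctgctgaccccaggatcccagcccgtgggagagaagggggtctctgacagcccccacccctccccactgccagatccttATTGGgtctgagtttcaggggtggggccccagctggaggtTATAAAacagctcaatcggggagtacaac
FLT3: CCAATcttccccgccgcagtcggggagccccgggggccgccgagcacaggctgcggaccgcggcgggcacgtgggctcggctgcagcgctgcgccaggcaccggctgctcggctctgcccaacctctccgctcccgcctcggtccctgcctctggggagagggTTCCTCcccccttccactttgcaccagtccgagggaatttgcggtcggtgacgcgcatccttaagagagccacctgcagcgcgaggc
The CSF2 window held the CK-1 core, starting 100 bases before the gene, and an ETS core on the other strand. CK-1 was present in 2.9% of 35093 windows of the same length and the ETS core in 23.6%. The IL3RA window held a TATA box, starting 29 bases before the gene, and a CCAAT box, which were in 3762 and 11229 windows. The FLT3 window held an ETS core and a CCAAT box but no TATA box. AP-1 sites, found in 6.6% of windows, were in none of the 3 runs. These are matches of letters only.

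**Figure D1:**
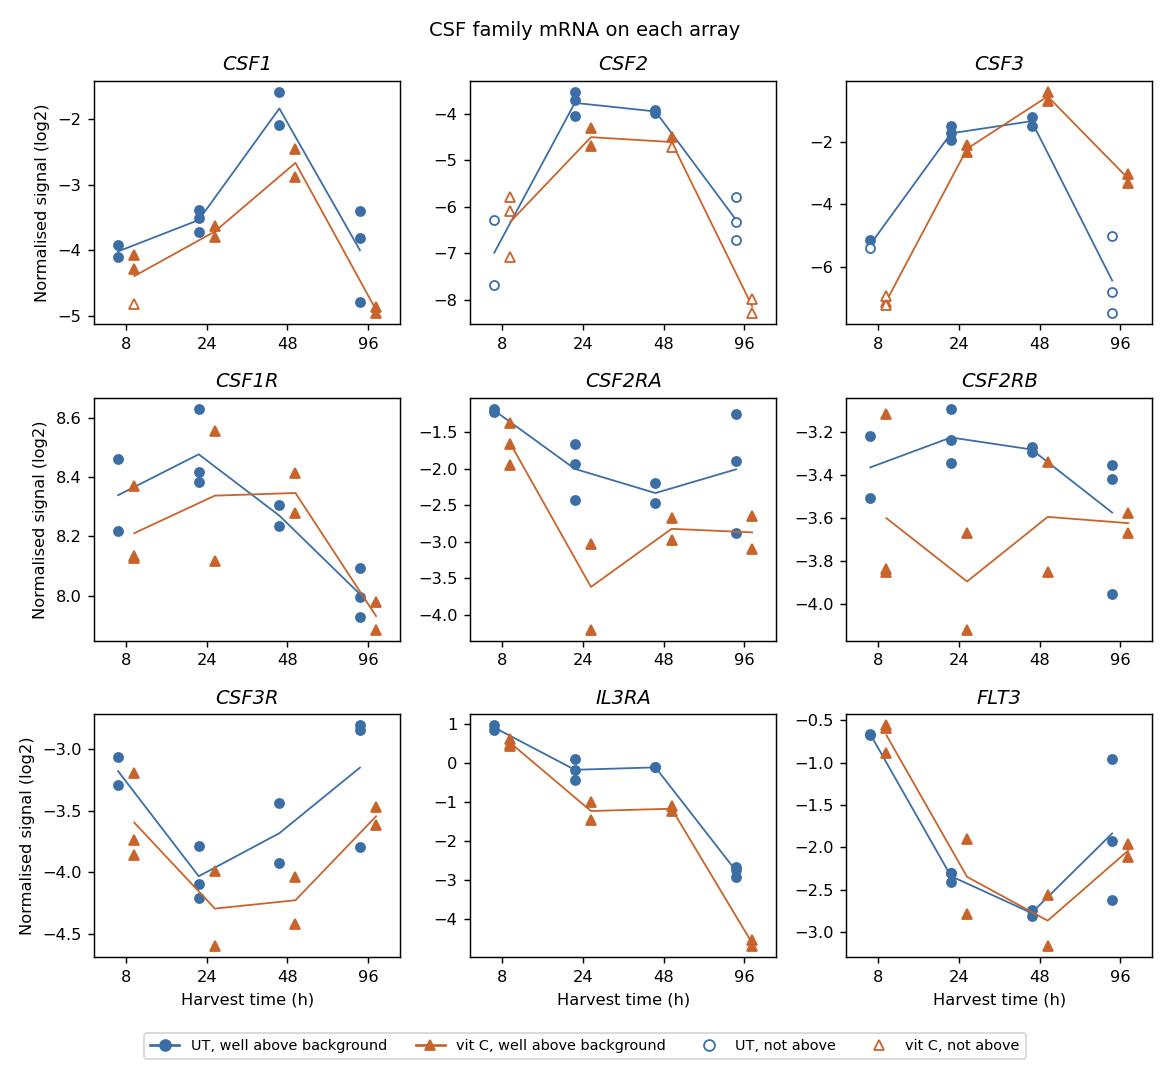
Normalised signal (log2, y axis, scaled separately for each gene) of the brightest probe of each gene on every array against harvest time in h (x axis, evenly spaced). Blue circles are UT and orange triangles vit C, lines join group means, and open symbols are not well above background. CSF1, CSF2 and CSF3 peak at 24 or 48 h, IL3RA descends in both arms with vit C below UT at each time, and CSF1R stays between 7.89 and 8.63.

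IL3RA, the alpha chain of the interleukin-3 receptor, was the member with the clearest vit C difference: it was lower with vit C on every array at each time, by a log2 difference that was 0.40 at 8 h and 1.86 at 96 h. UT arrays read 0.86 and 0.97 at 8 h, and vit C arrays 0.50, 0.45 and 0.61. At 24 h the UT arrays read 0.10, -0.43 and -0.18 and the vit C arrays -1.46 and -1.01. At 48 h they read -0.11 and -0.11 against -1.24 and -1.11. At 96 h the UT arrays read -2.66, -2.92 and -2.74, and the vit C arrays -4.55 and -4.72, with all 19 arrays detected. The groups of a time did not overlap at any of the 4 times. Summed marker signals (log2) also differed between the arms, but not all in the same direction or at the same times. The sum of the granulocyte-precursor markers MPO, AZU1 and PRTN3 was also lower with vit C, without overlap, at 8 h (1.935 to 2.364 against 2.371 to 2.494 in UT), 24 h (0.225 to 0.255 against 0.457 to 0.9) and 48 h (-2.357 to -1.966 against -1.297 to -0.968), and the groups overlapped at 96 h. The sum of the fibroblast markers was higher with vit C at 24 h (-3.609 to -3.128 against -3.969 to -3.753), at 48 h (1.115 to 1.145 against -1.322 to -1.003) and at 96 h (2.079 to 2.261 against -0.574 to 0.341). The NK cell sum was higher with vit C, without overlap, at 8, 24 and 48 h (at 48 h -1.315 to -1.093 against -2.53 to -2.432), and the endothelial sum was lower at 24, 48 and 96 h (at 96 h 4.616 to 4.713 against 5.327 to 5.914). The monocyte and macrophage sum was lower with vit C at 24 h (8.276 to 8.339 against 8.351 to 8.565) and 48 h (8.318 to 8.353 against 8.408 to 8.436) and higher at 96 h (8.314 to 8.425 against 8.158 to 8.295). The epithelial sum was lower at 8 h (-4.945 to -3.997 against -3.756 to -3.595) and higher at 48 and 96 h (at 96 h -3.743 to -3.545 against -4.062 to -3.777). The part of these markers in the IL3RA result was not tested. The processed signal of IL3RA at 96 h before scaling was 34.49 and 35.16 with vit C and 60.74 to 95.58 in UT.

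The vit C difference of IL3RA was -0.40 at 8 h (95% interval -0.82 to 0.02; q = 0.44), -1.06 at 24 h (-1.48 to -0.64; q = 0.0161), -1.06 at 48 h (-1.52 to -0.60; q = 0.0154) and -1.86 at 96 h (-2.28 to -1.44; q = 0.000108). It was called at 24, 48 and 96 h. Averaged over the 4 times it was -1.09 (SE 0.10; q = 1.725e-05), and it was under the size needed with normexp background correction (-0.85) and with the mean of both probes (-0.91). Whether the difference itself changed with time was not settled, with F = 9.28 and q = 0.0781. At 24 h the call was lost without UT replicate 1 (-0.92) or vit C replicate 1 (-0.83), and at 48 h it was lost without any 1 of the 4 arrays (between -0.9987 and -1.1277). With slide as a block the difference was -0.90 at 24 h (q = 0.486), which was not called. At 48 h it was -0.96 and rests on vit C replicate 1 alone. At 96 h the difference was called without any 1 of its arrays, but not in a fit of those 2 groups alone (q = 0.1327).

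**Figure D2:**
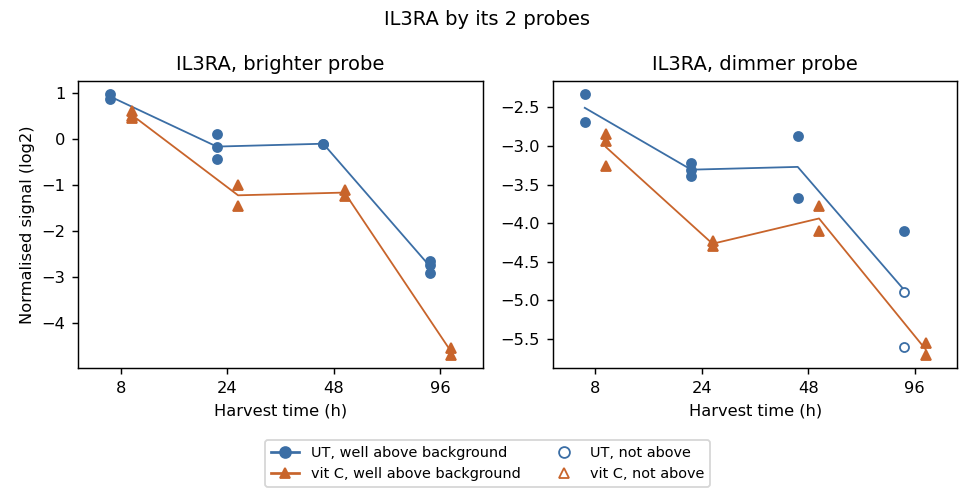
Normalised signal (log2, y axis) of IL3RA by its brighter (left) and dimmer (right) probe against harvest time in h (x axis); symbols as in the plot of all genes, with separate y scales. Vit C means lie below UT means at each time for both probes, by 1.86 at 96 h on the brighter and 0.77 on the dimmer, where 1 of 3 UT arrays was detected.

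A second, dimmer IL3RA probe went the same way. Its vit C differences at the 4 times in turn were -0.51, -0.96, -0.67 and -0.77, and none was called (q between 0.156 and 0.602). Groups did not overlap at 8, 24 and 48 h and overlapped at 96 h, where only 1 of 3 UT arrays was detected. Its difference averaged over the 4 times was -0.73 (q = 0.0162), which is under the size needed for a call. At 96 h against 8 h this probe fell too, with changes of -2.36 in UT (q = 0.000186) and -2.62 with vit C (q = 6.186e-05).

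The order of IL3RA group means on the brighter probe ran from UT at 8 h (0.92) through vit C at 8 h (0.52), UT at 48 h (-0.11), UT at 24 h (-0.17), vit C at 48 h (-1.17), vit C at 24 h (-1.23) and UT at 96 h (-2.77) to vit C at 96 h (-4.63). Arrays of 2 pairs of neighbours overlapped, UT at 48 and 24 h and vit C at 48 and 24 h, and the arrays of the other neighbours did not. IL3RA fell over time in both arms. In UT cells the change from 8 h was -1.09 at 24 h (q = 0.00673), -1.03 at 48 h (q = 0.00638) and -3.69 at 96 h (q = 2.683e-08). With vit C it was -1.75 (q = 8.49e-05), -1.69 (q = 2.865e-05) and -5.15 (q = 5.63e-10). The granulocyte-precursor sum also fell, from 2.371 to 2.494 in UT at 8 h to -2.367 to -1.482 at 96 h. With vit C it went from 1.935 to 2.364 down to -1.958 to -1.928. The fibroblast, NK cell and monocyte and macrophage sums were above their 8 h ranges at 96 h in both arms. The part of these markers was not tested. The 3 comparisons of an arm share the same 8 h arrays. The UT call at 24 h was lost without either 8 h array or without replicate 2 at 24 h, and that at 48 h without replicate 2 at 8 h.

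Among the 9 genes as a set, 0 were called for vit C against UT at 8 h, where 0.554% of 25090 genes tested were. CSF3, and CSF1 by its dimmer probe, had an unadjusted p under 0.05 with a difference of at least 1 there, both lower. A fit of only the 8 h groups called CSF3, and the methods' t-test called 0. At 24 h 2 of 8 tested were called, IL3RA and CSF2RA, both lower, where 1.68% of all genes were; CSF1 was not tested there because its probes went opposite ways. At 48 h 1 of 9 was called, IL3RA, against 3.66% of all genes. These backgrounds rest on few arrays: with 1 array left out they ranged from 13 (without UT replicate 2) to 84 genes at 8 h, from 91 (without vit C replicate 2) to 365 at 24 h and from 281 (without UT replicate 2) to 534 at 48 h, and with slide as a block they were 8, 20 and 136, against 139, 438 and 931. At 96 h 3 of 9 were called, against 12.8% of all genes: IL3RA and CSF2 lower and CSF3 higher. That background moved with the settings, from 3372 genes to 1001 with quantile normalisation, 1444 with the percentile of detected probes and 746 with a floor of 20, and it ranged from 474 (without vit C replicate 1) to 5974 (without UT replicate 3) with 1 array left out. Among genes with a detected probe it was 6.02%, and IL3RA and CSF3 were the members called by a detected probe. On the average over the 4 times only IL3RA was called, where 3.48% of all genes were. At 24 h 1 member was called when UT replicate 1 or 3 or vit C replicate 1 or 2 was left out. Leaving out UT replicate 3 at 96 h gave 5, adding CSF1 at -1.295 and CSF2RA at -1.30. On the average over times 2 were called without vit C replicate 1 of 24 h, which added CSF2RA.

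**Figure D3:**
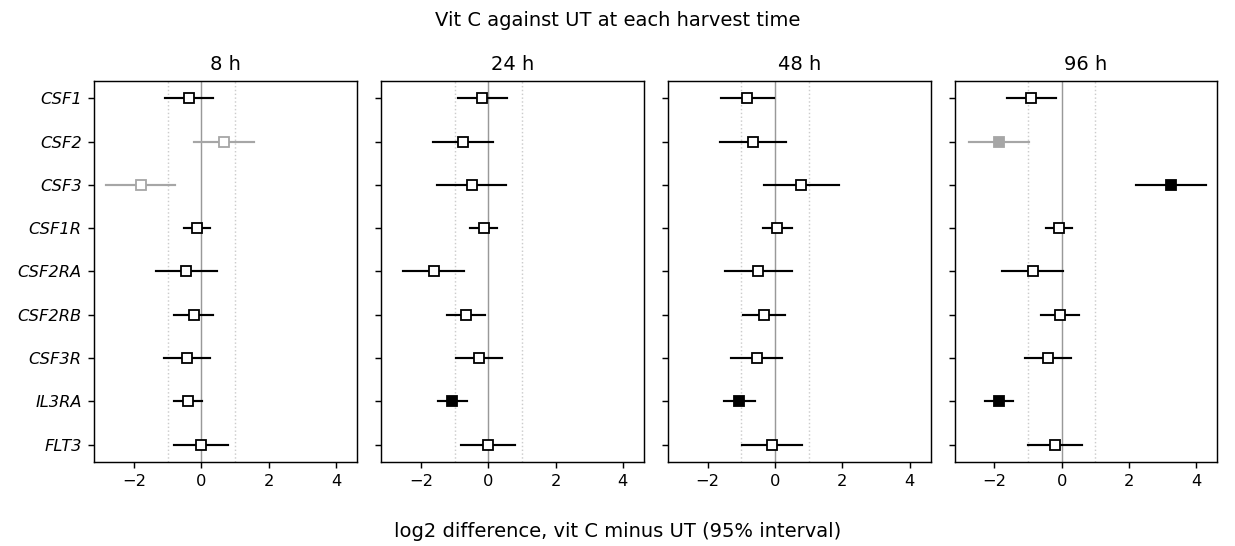
Log2 difference of normalised signal, vit C minus UT (x axis, log2), of the 9 genes (y axis) at each time, with 95% intervals; filled squares are called and grey marks genes for which neither group was detected on all of its arrays. IL3RA lies left of 0 at all 4 times, CSF3 at 96 h lies at a fitted 3.25, where no UT array was detected and the bound is at least 3.66-fold, and the interval of CSF1R at 96 h runs from -0.46 to 0.32.

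CSF3, the granulocyte colony-stimulating factor, was the ligand with the widest range. At 8 h 1 of 2 UT arrays was detected, at -5.15 and -5.40, and none of the 3 vit C arrays, at -7.12, -6.91 and -7.20. At 24 h the UT arrays read -1.96, -1.74 and -1.51 and the vit C arrays -2.33 and -2.12. At 48 h they read -1.21 and -1.49 against -0.70 and -0.42, the highest level in both arms. At 96 h no UT array was detected, at -6.80, -5.01 and -7.47, while both vit C arrays were, at -3.04 and -3.33. The vit C cells thus stayed detected at 96 h and the UT cells did not.

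Against UT, CSF3 signal with vit C at 96 h was higher by at least 3.66-fold (q = 0.00131), a lower bound because no UT array was well above background. With normexp background correction, whose offset of 50 exceeds many of these signals, the difference was 0.37 (q = 0.1101) and was not called, and with signals floored at 20 it was 1.33 and called. At 24 h the vit C difference was -0.49 (95% interval -1.52 to 0.53) and at 48 h 0.79 (-0.33 to 1.91), neither called. In the test of whether the vit C difference changed between the 4 times, 1 of the 9 was called, CSF3 (F = 20.2, q = 0.0112), where 1.36% of all genes were. That call was lost without vit C replicate 1 at 96 h and with normexp. The 75th percentiles of the 96 h vit C arrays were above those of all other arrays, and before this scaling the processed signal of CSF3 at 96 h was 98.35 and 92.12 with vit C and 3.48 to 14.21 in UT.

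CSF3 rose from 8 h to 24 and 48 h in both arms. In UT cells the change was 3.54 at 24 h (q = 0.000843) and 3.93 at 48 h (q = 0.0002), with 1 of 2 arrays detected at 8 h. At 96 h, with no UT array detected, it was not called (q = 0.11). With vit C, where no 8 h array was detected, the bounds were a rise of at least 6.59-fold by 24 h, 20.9-fold by 48 h and 3.403-fold by 96 h (q of 3.023e-05 or less), the last not called with normexp (q = 0.0695). The UT comparisons up to 48 h and the vit C comparison of 24 h each lay within 1 slide, and so did that of 48 h once vit C replicate 2 was left out, where the CSF3 rise was still called (q = 2.263e-05).

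CSF2, the granulocyte-macrophage colony-stimulating factor, was detected at 24 and 48 h and on no array at 8 or 96 h. At 24 h the UT arrays read -3.71, -3.53 and -4.05 and the vit C arrays -4.69 and -4.31. At 48 h the UT arrays read -3.91 and -3.99 and the vit C arrays -4.50 and -4.72, the last not detected. Vit C arrays were below every UT array at both times, but the differences of -0.74 at 24 h (95% interval -1.63 to 0.15; q = 0.334) and -0.66 at 48 h (-1.64 to 0.32; q = 0.559) were not called. The call at 96 h (q = 0.0182) rests on signals not well above background in both groups, so no fold is given. The vit C arrays there read -8.00 and -8.29 and the UT arrays between -6.73 and -5.80. From 8 h, CSF2 rose in UT cells at least 2.81-fold by 24 h (q = 0.000598) and at least 2.48-fold by 48 h (q = 0.000534). With vit C the bounds were 1.361-fold by 24 h (q = 0.0155) and 1.265-fold by 48 h (q = 0.0102), where 1 of 2 arrays was detected. With normexp these CSF2 rises were below the size needed at 24 h in both arms (0.88 and 0.27) and at 48 h in UT (0.82). With signals floored at 20 they were 0.75 and 0.0988 at 24 h and 0.56 at 48 h in UT, and none was called. A fit of 2 groups lost both 24 h calls (q of 0.06249 in UT and 0.06774 with vit C), and the vit C call at 24 h was also lost without replicate 2 of 8 or of 24 h.

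CSF1, the macrophage colony-stimulating factor, peaked at 48 h in both arms. UT arrays read -3.92 and -4.11 at 8 h, -3.39, -3.51 and -3.72 at 24 h, -1.60 and -2.10 at 48 h, and -3.41, -3.81 and -4.78 at 96 h. Vit C arrays read -4.28, -4.81 and -4.07 at 8 h, the second not detected, -3.62 and -3.80 at 24 h, -2.88 and -2.46 at 48 h, and -4.95 and -4.85 at 96 h. CSF1 rose from 8 to 48 h by 2.17 in UT (q = 0.00144) and by 1.72 with vit C (q = 0.00247). With normexp these were 1.2032 and 0.74, the latter not called. At 48 and 96 h every vit C array lay below every UT array, with differences of -0.82 (95% interval -1.62 to -0.03; q = 0.284) and -0.90 (-1.63 to -0.18; q = 0.0856), which were not called. Before scaling, the processed signal of CSF1 at 96 h overlapped, at 26.07 and 31.95 with vit C and 23.28 to 36.62 in UT. Averaged over the 4 times the difference was -0.57 (q = 0.044), under the size needed. A second CSF1 probe, detected on 9 arrays, gave 2.23 for the rise to 48 h in UT (q = 0.0153).

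CSF1R, the receptor of CSF1 and the kinase on which macrophages depend, was detected on all 19 arrays. Its group means lay between 7.93 (vit C at 96 h) and 8.48 (UT at 24 h), with arrays from 7.89 to 8.63. No comparison called it. Vit C minus UT was -0.13 at 8 h (95% interval -0.52 to 0.26), -0.14 at 24 h (-0.53 to 0.25), 0.08 at 48 h (-0.35 to 0.50) and -0.07 at 96 h (-0.46 to 0.32). All 4 intervals lay inside a change of 1 in either direction, the size needed for a call. At 24, 48 and 96 h the sign of the difference turned with the normalisation. At some of these times it also turned with the background correction, slide as a block or 1 array left out. At 8 h it stayed negative in every setting, from -0.2734 to -0.007.

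CSF2RA, the alpha chain that binds GM-CSF, was lower with vit C at 24 h by both of its probes. By the brighter probe the UT arrays read -2.42, -1.93 and -1.65 and the vit C arrays -3.03 and -4.20, a difference of -1.62 (95% interval -2.52 to -0.71; q = 0.0716) that was not called. By the other probe the UT arrays read -2.97, -3.10 and -2.82 and the vit C arrays -4.29 and -4.79, and this difference of -1.58 was called (q = 0.017). The call was lost without UT replicate 3 or vit C replicate 2, with slide as a block, with normexp and in a fit of the 2 groups. At 8, 48 and 96 h the differences of the brighter probe were -0.45, -0.49 and -0.86, with none called. With slide as a block the 24 h difference of the brighter probe was -0.48. From 8 to 24 h it fell by 1.96 with vit C (q = 0.0108), and in UT the change was -0.80 (q = 0.336). The F test of the vit C effect over all 4 times was not called for this probe (q = 0.5368) or for the other (q = 0.2083). Whether the 8 to 24 h change alone differs between the arms was not tested. The fall with vit C was not called without replicate 2 of 24 h.

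CSF2RB, the beta chain shared by the GM-CSF, interleukin-3 and interleukin-5 receptors, and CSF3R, the G-CSF receptor, were detected on all 19 arrays and called in no comparison. CSF2RB group means lay between -3.89 and -3.23, and its vit C differences were -0.24, -0.67, -0.31 and -0.05 at the 4 times, with q of 0.225 at the lowest. At 24 h its 95% interval ran from -1.24 to -0.10 and the groups did not overlap. CSF3R group means lay between -4.29 and -3.15. Its vit C differences were -0.42, -0.26, -0.54 and -0.40. UT and vit C arrays of both genes overlapped at 8 and 96 h. At 48 h they did not, but each group there held only 2 arrays.

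FLT3, the receptor kinase of progenitors, fell over time in both arms, and no vit C difference was detected. UT arrays read -0.67 and -0.66 at 8 h, -2.30, -2.31 and -2.41 at 24 h, -2.74 and -2.81 at 48 h and -1.93, -2.62 and -0.95 at 96 h. Vit C arrays read -0.56, -0.59 and -0.88, then -2.79 and -1.90, then -2.56 and -3.17, and last -2.11 and -1.96. The vit C differences were -0.01 at 8 h (95% interval -0.82 to 0.79), -0.01 at 24 h (-0.82 to 0.80), -0.09 at 48 h (-0.97 to 0.79) and -0.20 at 96 h (-1.01 to 0.61). In UT cells FLT3 fell by 1.67 at 24 h (q = 0.0271), 2.11 at 48 h (q = 0.00394) and 1.17 at 96 h (q = 0.0394). With vit C it fell by 1.67 (q = 0.0141), 2.19 (q = 0.000905) and 1.36 (q = 0.0136). These calls depended on single arrays: in UT the 24 h call was lost without any 1 of its 5 arrays and the 96 h call without any of 4, and with vit C the 24 h call was lost without replicate 1 of 8 or of 24 h and the 96 h call without either 96 h array. The 48 h calls held in both arms with any 1 array left out. The sum of the granulocyte-precursor markers was also below its 8 h range at 24, 48 and 96 h in both arms. At 96 h it was -2.37 to -1.48 in UT and -1.96 to -1.93 with vit C. In UT it fell further from 48 h (-1.30 to -0.97) to 96 h, while the FLT3 mean rose from -2.77 to -1.83. With vit C it was -2.36 to -1.97 at 48 h, and the FLT3 mean rose from -2.86 to -2.04. AZU1 and PRTN3 were detected on all arrays and MPO on 4, and their part in the result was not tested.

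**Figure D4:**
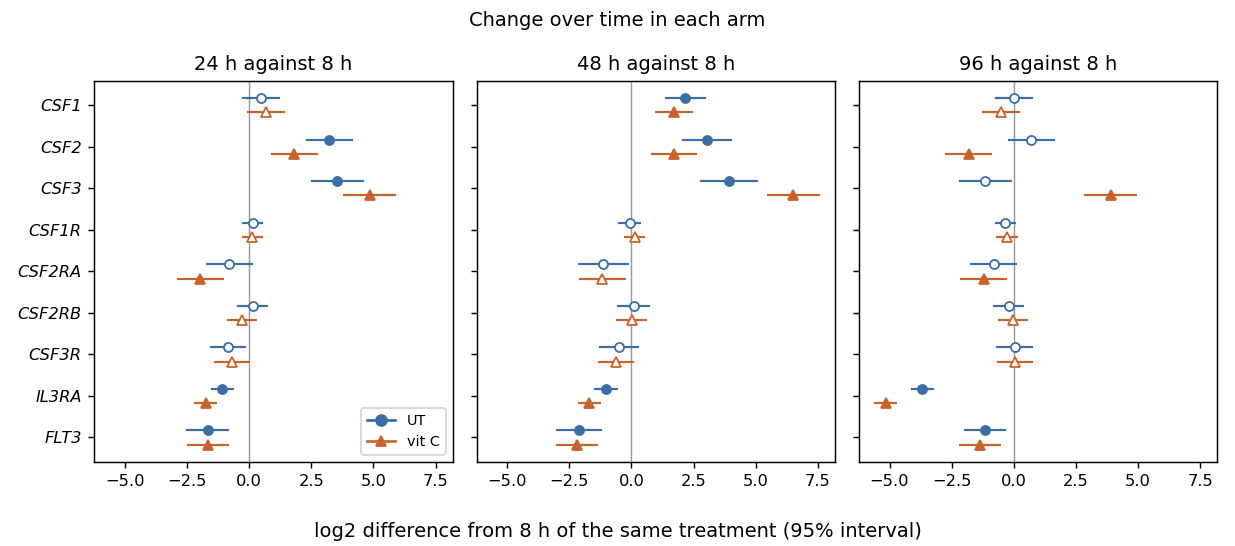
Log2 difference of normalised signal from 8 h of the same arm (x axis, log2) of the 9 genes (y axis) at 24, 48 and 96 h, with 95% intervals; circles are UT, triangles vit C, and filled symbols are called. CSF2 and CSF3 lie to the right of 0 at 24 and 48 h and IL3RA and FLT3 to the left at all 3 times in both arms, IL3RA reaching -3.69 and -5.15 at 96 h.

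Over time, in UT cells, 4 of 8 tested were called at 24 h against 2.65% of all genes, namely CSF2 and CSF3 up and IL3RA and FLT3 down. At 48 h 5 of 9 were called against 8.93%, the same with CSF1 up, and at 96 h 2 of 9 against 16.1%, IL3RA and FLT3. With vit C, the 24 h comparison called 5 of 9 against 5.63%, the 48 h comparison 5 of 9 against 13.1% and the 96 h comparison 5 of 8 against 29.1%. Here CSF2RA was down at 24 and 96 h, and CSF1 up at 48 h. The CSF2RA change at 96 h by the brighter probe was -1.22 (q = 0.0368), and its call was lost with normexp (-0.98), with signals floored at 20 and without replicate 1 or 3 of 8 h or either array of 96 h. The shares over all genes moved with the settings. With normexp 299, 1359 and 2379 genes were called in UT at the 3 times, against 690, 2364 and 4269. With vit C they were 666, 1733 and 4016, against 1473, 3550 and 7874. Without 1 of the 3 UT arrays of 24 h, 508 to 611 genes were called in UT at 24 h. The call of CSF2 at 96 h, lower, compares signals not well above background. The UT count at 24 h was 2, CSF2 and CSF3, without either 8 h array or without replicate 2 at 24 h. The UT count at 96 h was 1, IL3RA, without either 8 h array or without replicate 1 of 96 h, and the vit C count at 96 h was 3 without either 96 h array.

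Genes around these receptors were taken by role: other ligands, related receptors, kinases and STATs, adaptors, inhibitors, downstream targets and transcription factors. Of 47 listed, 46 were on the array and 43 were detected on all arrays of at least 1 group. At 8 h 2 were called by a detected probe for vit C against UT, both lower, where 0.671% of genes with a detected probe were. These were SOCS3, a feedback inhibitor of cytokine receptors (-1.49, q = 0.0229), and OSM, a cytokine gene downstream of JAK and STAT5 (-1.39, q = 0.00562). At 24 h 1 was higher and 1 lower against 2.21%: PDGFRB, a receptor kinase of the CSF1R family (1.75, q = 0.000886), and OSM (-1.37, q = 0.00169). At 48 h 1 was higher, PDGFRB (1.00, q = 0.0252), and 1 lower against 5.02%. The latter was KIT, the receptor of stem cell factor, lower by at least 2.07-fold (q = 0.00196). At 96 h 1 was higher and 3 lower against 6.02%: PDGFRB (1.30, q = 0.00228) was higher. KIT was lower by at least 8.26-fold (q = 0.000258), and the OSM difference was -1.61 (q = 0.000136). EGR2, an early growth response transcription factor gene, read 3.26 in UT and 0.62 with vit C, a difference of -2.64 (q = 0.000107). None of the genes listed as kinases and STATs, as adaptors or as transcription factors at the receptor genes was called by a detected probe (EGR2 was listed as a downstream target). Many were not tested, because their probes went opposite ways: of the 46 genes 29, 36, 32 and 31 were tested at the 4 times in turn. These held 6, 8, 8 and 8 of 10 kinases and STATs, 3, 5, 5 and 3 of 6 adaptors, and 4 of 6 transcription factors each time. As examples, the adaptor TYROBP lay between 6.73 and 7.67 in group means with vit C differences of -0.29 to 0.27. The kinase LYN lay between 3.86 and 5.07, with differences of -0.44 to 0.27. CEBPB, a myeloid transcription factor gene, lay between 6.07 and 7.48 and was not tested at 24 and 96 h. The median vit C difference over the 43 genes at the 4 times in turn was -0.113, -0.214, -0.2 and -0.001, against -0.08, -0.027, -0.059 and -0.054 over all detected genes.

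Of these, SOCS3 at 8 h was not called when any 1 array of its groups was left out, nor with slide as a block (-0.99). OSM at 8 h was not called without UT replicate 2, PDGFRB at 48 h without any 1 of its arrays, and PDGFRB at 96 h without vit C replicate 1. With slide as a block OSM was -1.36 at 8 h and -1.33 at 24 h, PDGFRB was 1.36 at 24 h and 0.50 at 48 h, and KIT at 48 h had q = 0.1286, none of them called. With normexp KIT at 48 h was -0.56 (q = 0.1956), also not called, and PDGFRB was 0.86 at 48 h and 0.66 at 96 h, under the size needed, as was KIT at 48 h with signals floored at 20 (-0.91). A fit of only the 2 groups compared called OSM at 8 h and no other of these results (q between 0.05191 and 0.1769). KIT was detected on every UT array at 8, 48 and 96 h, at group means of -4.95, -3.60 and -2.88, and on no vit C array at any time. KITLG, the ligand of KIT, was detected on all arrays, was not called at 24 or 48 h (-0.34 and -1.13, q of 0.5636 and 0.1098) and was not tested at 8 and 96 h, where its probes went opposite ways.

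The genes most like IL3RA over the 8 group means were BCAN (r = 0.996), the MGC4172 entry and the THC2665061 entry, out of 9273 genes considered; over the 19 arrays r was 0.99 for BCAN. For FLT3 they were entries ENST00000324982 (r = 0.978), AK025758 and ECHDC2. For CSF2RA and CSF3R the nearest genes were HsapiAK056630 (r = 0.969) and CTNNBIP1 (r = 0.974). These values describe how the levels lined up across the same 8 groups, on the same arrays.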

How the data were processed

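RNA of 19 THP-1 cultures was measured on one-colour Agilent arrays. The deposited scanner files hold processed signal intensity per spot, made with Feature Extraction 10.5.1.1 per the file headers (spatial and multiplicative detrending on, local background subtraction off); the deposited series matrix holds log2 values that the authors normalised to the 75th percentile, and it matched the scanner values within 0.01 for at least 99.91% of probes. Here control spots and 30 to 79 outlier spots per array were left out (177 probes in all), log2 signal was centred on the 75th percentile of each array, and limma 3.58.1 (R 4.3.3) was fitted to 8 group means over all arrays. Probes of a gene that moved in opposite directions were removed from a comparison before adjustment. The fit was tested on simulated data. Replicates were biological replicates per the methods, seeded from 1 cell line, and p-values measure the spread between these samples. No replicate block was used. The number of arrays limits precision. The members, lists and named genes (all members, the pathway list by role, and the 3 genes nearest in pattern) were chosen with earlier results of these data known. Results of some listed genes are not reported here. Alternatives covered the test, scaling, background correction, floor, dim and opposing probes, slide, pairing, the series matrix and leaving out each array.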

Additional observations from a re-analysis of the deposited data

Results flagged for a closer look

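The vit C effect on CSF3 differed between the 4 harvest times by an F test over all genes (q = 0.01115). The vit C difference was -0.49 at 24 h and 0.79 at 48 h, where both groups were detected. At 96 h no UT array was detected and vit C was higher by at least 3.66-fold, and at 8 h no vit C array and 1 UT array were detected, so the fitted differences that enter the test at these times are not exact.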

How the results depend on the processing

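With 2 or 3 arrays per group, the calls rest on the spread shared over all 8 groups. The methods' t-test called 0 members for vit C at 24, 48 and 96 h, 0 for UT at 24 and 48 h, 1 for UT at 96 h and 0 for vit C at 24 h against 8 h. Over all genes it gave 1290, 1315, 1521 and 3313 at its unadjusted threshold for vit C at 8, 24, 48 and 96 h and 11, 0, 1 and 0 after Benjamini-Hochberg adjustment. A fit of only the 2 groups called 1 member (CSF3) for vit C at 8 h, 0 at 24, 48 and 96 h, 2 for UT at 24 h and 1 for UT at 96 h. The normexp background, whose offset of 50 exceeds many of the signals concerned, called 0 for vit C at 24 and 48 h, 1 at 96 h (IL3RA), 0 on the average and 0 between the times, 3 and 1 for UT at 48 and 96 h, and 3 and 2 for vit C at 48 and 96 h against 8 h. It also moved the median of all probes at 96 h to -0.44, from -0.14 (quantile normalisation gave -0.03). Relative to that median IL3RA was -0.77 with normexp, -1.71 by the reported scaling and -1.84 with quantile normalisation. The mean of all probes of a gene called 0 at 48 h and 0 on the average. Slide as a block called 0 for vit C at 24 and 48 h and 1 for UT at 96 h. It could not be fitted for vit C at 96 h, for the average or for vit C at 96 h against 8 h. The replicate block called 0 at 24 h, 0 at 48 h and 0 between the times, and the crossed replicate block at 48 h, chosen after seeing the data, called 0. Samples of 1 number did not deviate together, with correlations from -0.344 to 0.142 and 1 of 8 above 0.1. In a group of 2 arrays the deviations mirror each other, so these values are not independent. They cannot decide whether the numbers pair the samples. Between the times, quantile normalisation and the filter on dim probes each called 2 (CSF3 and IL3RA), and the floor of 20 called 3. The floor called 1 for UT at 96 h. The causes were not tested.

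Leaving out 1 array at a time, members called ranged from 1 to 2 for vit C at 24 h, 0 to 0 at 48 h, 2 to 5 at 96 h, 1 to 2 on the average (2 without vit C replicate 1 at 24 h), 0 to 1 between the times, 2 to 3 and 1 to 2 for UT at 24 and 96 h, and 3 to 5 for vit C at 96 h against 8 h. Reversed signs concerned uncalled differences of vit C against UT. With the slide block CSF1 was 0.51 at 8 h and 0.71 at 24 h, CSF2RA 0.69 at 8 h and 0.80 at 48 h, CSF2RB 0.0917 at 8 h, CSF3R 0.10 at 8 h and 0.25 at 24 h, CSF1R -0.0037 at 48 h and FLT3 0.0762 at 48 h. With normexp, CSF2RB was 0.0106 and FLT3 0.018 at 8 h, and CSF1R -0.0633 at 48 h and 0.0751 at 96 h. With quantile normalisation CSF1R at 24, 48 and 96 h was 0.0299, -0.03 and 0.13, and FLT3 at 24 h was 0.0192. With the percentile of detected probes FLT3 was 0.0283 at 8 h, CSF1R 0.0173 and CSF2RB 0.0421 at 96 h. With the replicate block FLT3 was 0.0904 at 8 h and 0.24 at 96 h. With 1 array left out FLT3 ranged from -0.0709 to 0.0904 at 8 h, -0.45 to 0.44 at 24 h, -0.39 to 0.21 at 48 h and -0.60 to 0.24 at 96 h, CSF1R from -0.36 to 0.0792 and CSF3R from -0.57 to 0.0443 at 24 h, and CSF2RB from -0.24 to 0.0601 at 96 h. Over all settings other than single arrays left out, 714 of 795 values of the members kept direction and call, 55 lost a call, 4 gained one and 22 changed sign. Of 138 values of the named pathway genes, 101 kept direction and call and 37 lost the call.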
